A study of Mus musculus with 45 samples.

Results

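The genes described here code for enzymes of cholesterol synthesis and for close partners of that pathway that are under the control of SREBP2, measured in mouse heart. A list of 8 genes was taken (Hmgcs1, Idi1, Fdps, Fdft1, Sqle, Cyp51, Stard4 and Insig1), and every probe set of the array whose single annotated symbol was on the list was kept. This gave 18 probe sets of 7 genes, out of 20380 probe sets with a single symbol (12393 genes) and 22690 probe sets in all. No probe set carried Insig1 as its single symbol, so Insig1 was not analysed here. Of the 7 genes, 6 passed the filter on low values and entered the main test among 9295 genes. Sqle did not pass and was read from a fit without the filter.

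Heart RNA of male C57BL/6 mice was measured on 45 arrays. The mice were bought at an age of 13 weeks, and the exposures began when they were 15 weeks old. The regular weight mice (RW) were kept on a regular pelleted diet of about 5 kcal% fat. The obese mice (DIO) had their obesity induced by a pelleted diet of 60 kcal% fat, started at 6 weeks of age and so 9 weeks ahead of the exposures. Within each diet a group inhaled filtered air (SC, sham), a group mainstream smoke (MS, drawn through the cigarette) and a group sidestream smoke (SS, given off by the burning end), all by the nose only. A session lasted 5 h, and 8 sessions were spread over 2 weeks, as 5 days, 2 days without exposure and 3 more days, with necropsy on the next day. In RW mice there were 8 arrays for air, 8 for mainstream and 7 for sidestream smoke, and in DIO mice 8, 6 and 8. Obesity here came from the diet, so body weight and what was eaten cannot be told apart. A protocol field of the labels mentions LPS, but titles and treatment text give smoke, and smoke is used here. The title of the series asks whether the high-fat diet impairs the response of the heart to smoke.

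Cells make cholesterol from acetyl-CoA. Hmgcs1, the cytosolic HMG-CoA synthase, acts near the start of the route, Idi1 and Fdps make and join the isoprene units, Fdft1 (squalene synthase) commits them to sterols, Sqle oxidises squalene, and Cyp51 removes a methyl group from lanosterol. Stard4 carries cholesterol between membranes. SREBP2 is a transcription factor held in the endoplasmic reticulum: when sterols are low, Scap escorts it to the Golgi, where it is cut, and it then switches on these genes through sterol regulatory elements, often beside CCAAT boxes. When sterols are high, the Insig proteins hold Scap back. The heart makes cholesterol at a modest rate and also takes it up from lipoproteins.

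The stretch before the start site is shown for the 3 tested genes with an entry in the RefSeq promoter table used here (build GRCm38.p6), because Idi1 and Cyp51 had the largest falls with the diet, and Hmgcs1, which moved least, is a classical SREBP2 target. Each is the 250 bases before the start site, 5′ to 3′ on the strand of the gene, with capitals marking matches to the motifs TCACNCCAC (a sterol regulatory element), its looser core TCACNNCA, and CCAAT, searched on both strands, so that ATTGG is CCAAT on the other strand. The motifs were chosen after these sequences had been seen. The loose core is contained in the longer motif, so a match to the latter counts for both.
Hmgcs1 (chr13:119690101-119690350, plus strand): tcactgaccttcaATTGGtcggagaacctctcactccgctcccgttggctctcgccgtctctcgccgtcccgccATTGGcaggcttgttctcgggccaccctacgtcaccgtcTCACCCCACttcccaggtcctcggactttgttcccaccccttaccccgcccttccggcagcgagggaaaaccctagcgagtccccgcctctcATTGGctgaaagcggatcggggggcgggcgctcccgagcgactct
Idi1 (chr13:8885356-8885605, plus strand): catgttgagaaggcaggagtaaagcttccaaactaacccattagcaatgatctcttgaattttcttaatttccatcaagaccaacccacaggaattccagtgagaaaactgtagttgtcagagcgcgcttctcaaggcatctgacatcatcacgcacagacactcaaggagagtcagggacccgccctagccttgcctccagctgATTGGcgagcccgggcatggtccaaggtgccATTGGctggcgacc
Cyp51 (chr5:4104698-4104947, minus strand): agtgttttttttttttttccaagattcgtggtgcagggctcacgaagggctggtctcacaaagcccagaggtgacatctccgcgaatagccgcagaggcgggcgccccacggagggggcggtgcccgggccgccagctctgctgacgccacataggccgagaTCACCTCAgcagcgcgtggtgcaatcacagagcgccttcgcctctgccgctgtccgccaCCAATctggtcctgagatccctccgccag
The Hmgcs1 window held the full motif TCACCCCAC 137 bases before the start site and 3 CCAAT boxes, 237, 176 and 45 bases before it. The Cyp51 window held the looser core TCACCTCA at 88 bases and a CCAAT box at 29 bases. The Idi1 window held 2 CCAAT boxes, at 45 and 14 bases, and no match to either form of the element in this window. Among 32851 promoters of the same length, 1.05% held the full motif, 11.4% its looser core and 33.8% a CCAAT box. A match of letters is a description and not a measured binding site.

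Array medians over all probe sets ran from 6.20 to 6.24 on the log2 scale. The deposited values had already been normalised between arrays by RMA, so near-equal medians are no check of the arrays. Precision is limited by how many arrays a group has. The mean of 9 heart muscle markers lay between 13.99 and 14.07 on every array. Markers of white and brown fat varied widely within and between groups and are given beside the results below. The mean of 7 atrial markers in RW-MS ranged from 5.92 to 10.92, against 9.66 to 11.34 over the other groups, and the low values belong to RW-MS 2, 6 and 8. RW-MS 7 had the lowest correlation with its own group (0.982), and RW-SS 7 the largest difference between the 3′ and 5′ probe sets of Gapdh (0.94). Calls that change without these arrays are given beside the results.

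With the diet in air most of the tested sterol genes were lower. Of the 6 tested, 5 were lower in DIO-SC than in RW-SC hearts at an adjusted p under 0.05 (Idi1, Cyp51, Stard4, Fdft1 and Fdps), none was higher, and the remaining one, Hmgcs1, missed the threshold. For comparison, 20.2% of the 9295 genes passed in this contrast, 13.3% as lower and 6.92% as higher. The median change of the 6 genes was -0.22, against -0.02 over all genes. For each of the 6, all 8 DIO-SC arrays lay below the RW-SC mean. In bulk tissue, fewer cells of a type and less RNA per cell cannot be told apart.

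Idi1, which converts isopentenyl diphosphate to its isomer, fell the most. Its log2 values (here and below, the level of the probe set that stands for the gene) ran from 6.18 to 6.87 with a median of 6.62 in RW-SC, and from 5.89 to 6.26 with a median of 6.03 in DIO-SC. Only the lowest RW-SC array lay within the range of DIO-SC. The log2 change was -0.52 ± 0.11 (SE, n = 8 and 8), a ratio of 0.695, with an adjusted p of 0.000975 (limma).

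Cyp51, the lanosterol demethylase, ranged from 5.85 to 6.41 around a median of 6.00 in RW-SC and from 5.42 to 5.92 around 5.75 in DIO-SC. The ranges met at their ends, and 6 of 8 DIO-SC arrays were below every RW-SC array. Its change was -0.32 ± 0.08 (adjusted p = 0.00400, limma), a ratio of 0.800.

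Fdps, which builds farnesyl diphosphate, the last intermediate shared by sterols and the non-sterol products, went from a median of 7.10 (6.97 to 7.28) in RW-SC to 6.89 (6.83 to 7.01) in DIO-SC. The change was -0.19 ± 0.05 (adjusted p = 0.00455, limma). Fdft1, the first enzyme that serves sterols alone, went from 9.14 (8.96 to 9.27) to 8.93 (8.79 to 9.07), a change of -0.20 ± 0.06 (adjusted p = 0.0126, limma). Both pairs of groups overlapped in part.

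Stard4, the cholesterol carrier, had a median of 6.25 in RW-SC and 5.96 in DIO-SC and changed by -0.23 ± 0.07 (adjusted p = 0.0124, limma). A single RW-SC array, replicate 5, read 5.73, below all 8 DIO-SC arrays, while the other 7 RW-SC arrays lay between 6.17 and 6.35. Hmgcs1 was among the brightest genes of the list, with medians of 9.21 in RW-SC and 9.07 in DIO-SC. Its change of -0.13 ± 0.05 had an adjusted p of 0.0518 (limma), just outside the threshold, and it passed in 11 of 45 fits that left out 1 array. It also passed in 9 of 15 other settings. Among them were those without RW-MS 2, 6 and 8 (adjusted p = 0.0388, limma) and without RW-MS 7 and RW-SS 7 (adjusted p = 0.0476, limma). In both of these fits all 6 genes were called lower, which does not hold for all 9 settings. With the white fat covariate the adjusted p of Hmgcs1 was 0.270 (limma).

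**Figure D1:**
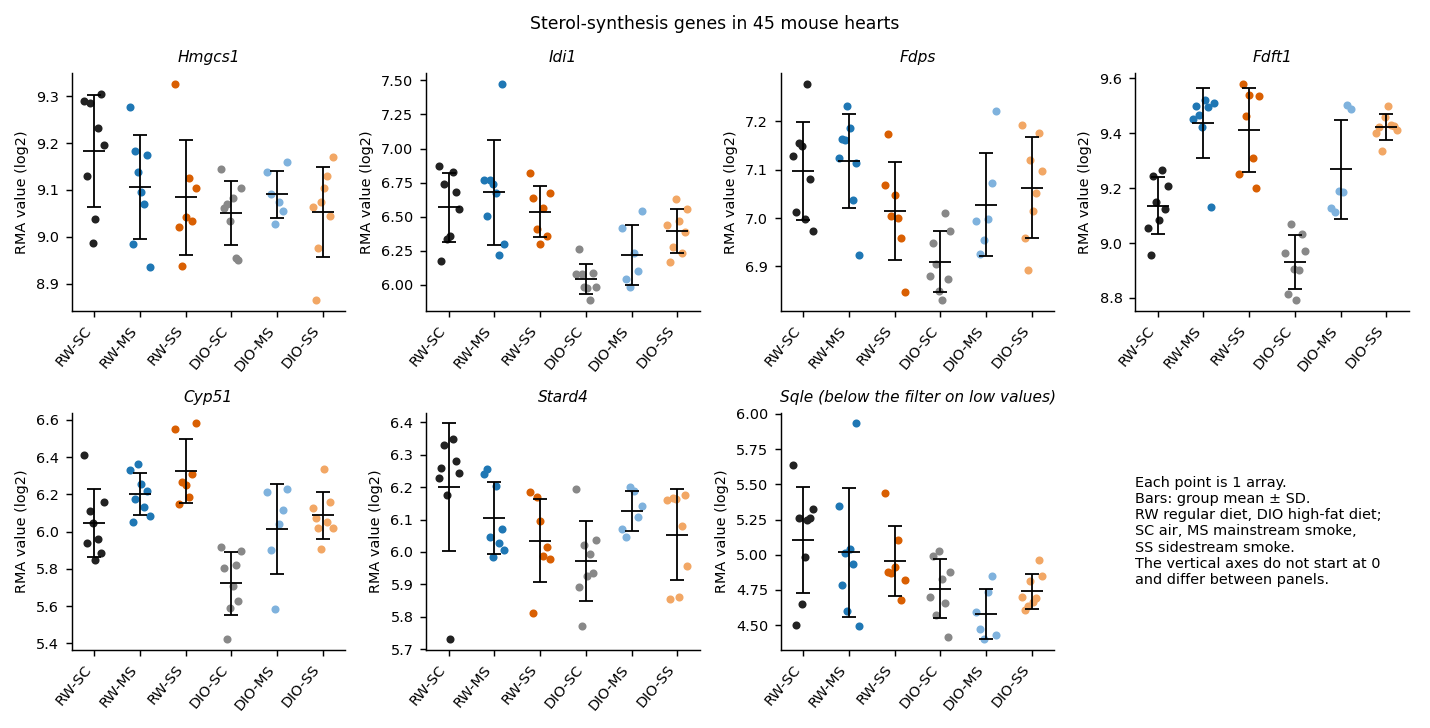
Log2 RMA values of the probe set that stands for each gene, 1 point per array, with the group mean and SD as bars, for the 6 groups on the horizontal axis. DIO-SC is the lowest group mean for the 6 tested genes, and the DIO-SS arrays of Fdft1 (9.34 to 9.50) lie above all DIO-SC arrays (8.79 to 9.07).

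Sidestream smoke raised part of the list in DIO mice. In DIO-SS against DIO-SC hearts 4 of the 6 genes were higher (Fdft1, Cyp51, Idi1 and Fdps) and none was lower, where 31.8% of all genes passed, 23% as higher and 8.82% as lower. The median change of the 6 was 0.25, against 0.04 over all genes. This contrast uses the same DIO-SC arrays as the contrast of the diet in air, so the fall and the rise are not independent of each other. Markers of other cell types also differed between these groups. The mean of 7 endothelial markers was 8.38 in DIO-SS (8.31 to 8.42) and 8.24 in DIO-SC (8.16 to 8.35), and that of 8 fibroblast markers 9.97 (9.72 to 10.25) and 9.80 (9.54 to 10.02). Their part in the changes of the sterol genes was not tested.

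Fdft1 showed the clearest difference. All 8 DIO-SS arrays, from 9.34 to 9.50 with a median of 9.42, were above all 8 DIO-SC arrays, whose highest value was 9.07. The change was 0.49 ± 0.06, a ratio of 1.41, with an adjusted p of 1.24e-07 (limma). Groups without overlap and higher with smoke occurred for 5.97% of genes in this contrast.

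Cyp51 in DIO-SS ran from 5.91 to 6.34 with a median of 6.06, and 7 of 8 arrays were above the highest DIO-SC array. Its change was 0.36 ± 0.08 (adjusted p = 0.000835, limma). Idi1 ran from 6.17 to 6.63 around 6.41 and changed by 0.35 ± 0.11 (adjusted p = 0.0170, limma), with all 8 arrays above the DIO-SC mean. Fdps changed by 0.15 ± 0.05 (adjusted p = 0.0132, limma), with 7 of 8 arrays above that mean. The endothelial difference was of about this size, and its part in the Fdps change was not tested.

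By the probe sets that stand for them, the other genes did not follow. Stard4 differed by 0.08, with a 95% interval from -0.05 to 0.22. Hmgcs1 differed by 0.00, with an interval from -0.10 to 0.10, and its DIO-SS arrays (8.87 to 9.17) spanned the whole DIO-SC range (8.95 to 9.14). The other Hmgcs1 probe sets had higher means in DIO-SS than in DIO-SC. Of these 1433446_at, with means of 7.60 and 7.43, passed as higher when tested by itself.

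Mainstream smoke in DIO mice gave 2 genes higher and none lower, where 4.55% of all genes passed, 3.66% as higher. Fdft1 ran from 9.11 to 9.50 with a median of 9.19 in the 6 DIO-MS arrays and changed by 0.34 ± 0.06 (adjusted p = 0.00146, limma). All 6 arrays lay above the DIO-SC range, a pattern that 1.5% of genes showed in the direction of a rise. Within DIO-MS, replicates 5 and 6 read 9.50 and 9.49 and the other 4 arrays 9.11 to 9.19, so the group was split. Cyp51 changed by 0.29 ± 0.09 (adjusted p = 0.0469, limma), and this call was lost in 26 of 45 fits that left out 1 array. The 6 genes all had positive changes, with a median of 0.17 against 0.01 over all genes. This contrast uses the same DIO-SC arrays again, and DIO-SC had the lowest mean for each of the 6. The shared positive direction is thus not independent of the contrasts above.

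**Figure D2:**
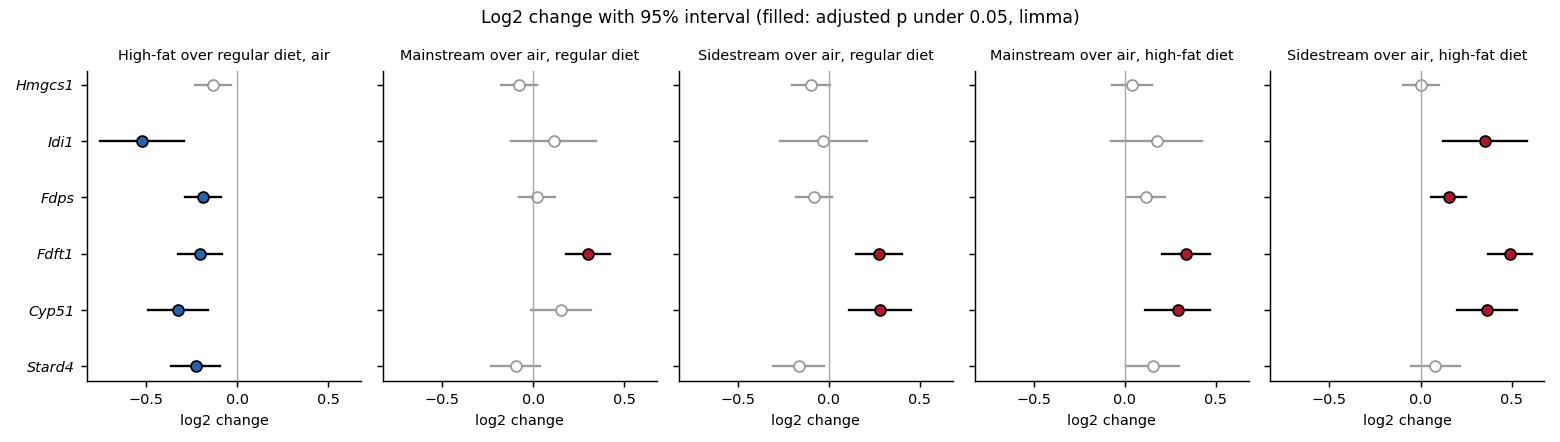
Log2 change (points) with 95% interval (lines) of the 6 tested genes in 5 comparisons, filled where the adjusted p was under 0.05 in limma. The 5 called changes of the diet in air lie left of 0 and the called changes of smoke right of 0, with Fdft1 filled in all 4 smoke panels.

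In RW mice fewer of these genes passed with smoke. Mainstream smoke raised 1 of the 6 genes, Fdft1, where 6.86% of all genes passed, 2.86% as higher and 4% as lower. RW-MS arrays ran from 9.13 to 9.52 with a median of 9.48, and 7 of 8 were above the highest RW-SC array, 9.27. The change was 0.30 ± 0.06 (adjusted p = 0.000818, limma). Without RW-MS 2, 6 and 8 it was 0.26 (adjusted p = 0.0209, limma). The mean of 5 red cell markers, of which 3 passed the filter, was 6.19 in RW-MS (5.91 to 6.47) and 5.87 in RW-SC (5.76 to 5.95), and its part in these values was not tested.

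Sidestream smoke raised Fdft1 and Cyp51 in RW mice, where 24.6% of all genes passed, 11.7% as higher and 13% as lower. Fdft1 ran from 9.20 to 9.58 (median 9.46, n = 7) and changed by 0.28 ± 0.06 (adjusted p = 0.000997, limma). Cyp51 ran from 6.15 to 6.58 (median 6.27) and changed by 0.28 ± 0.08 (adjusted p = 0.0120, limma), with all 7 arrays above the RW-SC mean. The other 4 genes had changes between -0.16 and -0.03, so that the median over the 6 was -0.06. Stard4 had the lowest of these, -0.16 ± 0.07 (adjusted p = 0.0749, limma). Without RW-SS replicate 1, the brightest RW-SS array for Hmgcs1 and Stard4, both of these genes passed as lower and 4 genes passed in all. Without RW-SC replicate 5 the change of Stard4 was -0.23 (adjusted p = 0.00415, limma). The red cell mean was 6.43 in RW-SS (6.09 to 7.15), against 5.87 in RW-SC, and its part here was not tested either.

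Whether sidestream smoke acted differently under the 2 diets was tested with an interaction, the change in DIO minus the change in RW mice. It passed for Fdps, at 0.24 ± 0.07 (adjusted p = 0.0107, limma), and for Stard4, at 0.25 ± 0.10 (adjusted p = 0.0498, limma). These were 2 of the 6 genes, a share near the 28.4% of all genes that passed, 18.3% in the positive direction. For Fdps the change in RW mice was -0.08 and in DIO mice 0.15. For Stard4 the changes were -0.16 and 0.08, neither of which passed by itself, and the interaction call was lost in 35 of 45 fits that left out 1 array. Fdft1 (0.22, adjusted p = 0.0554, limma) and Idi1 (0.38, adjusted p = 0.0759, limma) did not pass. All 6 interactions were positive, with a median of 0.23 against 0.06 over all genes. The low DIO-SC arrays enter here too, so this direction is not independent of the contrasts above. Without RW-MS 7, which enters this contrast only through the shared estimate of spread, 4 genes passed, with Fdft1 and Idi1 added. Without RW-MS 7 and RW-SS 7, Fdft1 and Idi1 were added and Stard4 was lost (adjusted p = 0.0649, limma). Without RW-MS 2, 6 and 8, Idi1 was added and Stard4 was lost (adjusted p = 0.0508, limma). With the mean of all probe sets of a gene, the Fdps interaction was 0.04 (adjusted p = 0.582, limma). Fdps had 2 probe sets, and the dimmer one, 1438150_at, had a mean of 2.60, where the lowest value of all was 2.12.

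For mainstream smoke none of the 6 interactions passed, where 0.226% of all genes did, and 1 of them (Stard4) had an unadjusted p under 0.05. Its adjusted p in limma was 0.305. The intervals were wide for the changes seen here: for Idi1 from -0.28 to 0.40.

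The 2 kinds of smoke were not told apart in these genes. In RW-SS against RW-MS, where 5.82% of all genes passed, none of the 6 did, and 1 (Fdps) had an unadjusted p under 0.05. In DIO-SS against DIO-MS, where 2.55% passed, none did, and 1 (Fdft1) had an unadjusted p under 0.05. The latter difference was 0.15, with an interval from 0.02 to 0.29 (adjusted p = 0.150, limma). Without DIO-MS replicate 6 it was 0.20 and passed (adjusted p = 0.0479, limma).

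Between diets under smoke, 1 gene differed in each contrast. In DIO-MS against RW-MS (10.6% of all genes passed, 5.44% as lower), Idi1 was lower by -0.46 ± 0.12 (adjusted p = 0.0110, limma). Both groups held Idi1 arrays between 6.22 and 6.54, and RW-MS 7 stood apart at 7.47. Without RW-MS 7, Fdft1 also passed as lower, at -0.21 (adjusted p = 0.0168, limma), and 2 genes passed as well without DIO-MS replicate 5 or 6. In DIO-SS against RW-SS (32.6% of all genes passed, 12.9% as lower), Cyp51 was lower by -0.24 ± 0.08 (adjusted p = 0.0253, limma). This call was lost without RW-SS replicate 1, RW-SS replicate 7 or DIO-SS replicate 4, and without RW-MS 7 and RW-SS 7 together. Fdft1 in DIO-SS and RW-SS differed by 0.01, with an interval from -0.11 to 0.14.

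Over all 6 groups, 4 of the 6 genes varied by the moderated F test (Idi1, Fdps, Fdft1 and Cyp51), a share near the 56.9% of all genes that did. Stard4 had an adjusted p of 0.0517 and Hmgcs1 of 0.157 (limma). DIO-SC had the lowest mean for each of the 6 genes, by the probe set that stands for the gene. For each gene a dimmer probe set had its lowest mean in another group. In the order of the group means, the step down to DIO-SC exceeded the larger SD of the neighbouring groups for Fdps, Fdft1 and Cyp51, and no other step between neighbours did for any of the 6. The upper end of the order differed: Fdft1 was highest in RW-MS (9.44 ± 0.13, SD, n = 8), Cyp51 in RW-SS (6.33 ± 0.17, n = 7), Idi1 and Fdps in RW-MS, and Hmgcs1 and Stard4 in RW-SC.

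Sqle, squalene epoxidase, was dim, with a mean of 4.87 against the filter's limit of 4.90. Its values ran from 4.50 to 5.63 in RW-SC, with a median of 5.26, and from 4.42 to 5.03 in DIO-SC, with a median of 4.77. In the fit of all 12393 genes its change with the diet in air was -0.35 ± 0.14 (adjusted p = 0.0857, limma), and under mainstream smoke it was -0.44 ± 0.15 (adjusted p = 0.0751, limma). Unlike the tested genes, its lowest group was DIO-MS, from 4.40 to 4.85, and no change with smoke passed in either diet.

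Most genes of the list had several probe sets, which did not all move alike. Each probe set was also tested by itself among 15285 probe sets, of which 14 of the 18 passed the filter. With the diet in air 8 of the 14 were lower and none higher, where 18.3% of probe sets passed, 11.4% as lower. In DIO-SS against DIO-SC 7 were higher and none lower, where 30% passed, 19.8% as higher. The counts were 4 higher and 2 lower in RW-SS against RW-SC (25.8% passed), 3 and 0 in DIO-MS against DIO-SC (3.4%), 2 and 0 in RW-MS against RW-SC (5.59%), and 3 and 0 in the sidestream interaction (27.3%). Probe sets of a gene share its transcripts and are not independent.

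Hmgcs1 had 4 bright probe sets, and the one that stands for the gene, 1433445_x_at, changed less with the diet in air than the other 3. Names ending in _x_at mark probe sets with probes that can match other sequences, and this one was the brightest of the 4 by a small margin. The probe set 1433443_a_at changed with the diet in air by -0.25 ± 0.05 (adjusted p = 0.000742, limma), from a mean of 9.22 ± 0.09 (SD, n = 8) to 8.97 ± 0.10 (n = 8). The probe set 1433446_at changed by -0.17 ± 0.05 (adjusted p = 0.0109, limma). In RW mice both were lower with sidestream smoke (-0.19 and -0.22), and in DIO mice 1433446_at was higher by 0.17 ± 0.05 (adjusted p = 0.00984, limma). Their sidestream interactions were 0.30 ± 0.08 (adjusted p = 0.00364) and 0.39 ± 0.07 (adjusted p = 0.000246, limma), against 0.10 for 1433445_x_at. The fourth, 1433444_at, passed in none of these.

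Fdft1 had 2 bright probe sets that moved together. The one that stands for the gene, 1438322_x_at, is also an _x_at probe set, with probes that can match other sequences. The second, 1448130_at, changed by -0.21 ± 0.06 with the diet in air (adjusted p = 0.0133, limma) and by 0.39 ± 0.06 in DIO-SS against DIO-SC (adjusted p = 7.23e-06, limma). Across the 45 arrays its deviations from the group means correlated with those of 1438322_x_at at r = 0.77. The dimmer 1438918_at and 1438919_x_at, with means of 5.59 and 5.27, correlated at -0.09 and -0.14 and did not pass in either contrast. For Cyp51, 1422533_at (mean 5.24) rose by 0.38 ± 0.08 in DIO-SS against DIO-SC (adjusted p = 0.000209, limma) and by 0.30 ± 0.08 in RW-SS against RW-SC (adjusted p = 0.00401, limma). With the diet in air it changed by -0.20 ± 0.08 (adjusted p = 0.0617, limma). With the mean of all probe sets of a gene in place of the brightest, the dim ones included, only Cyp51 of the 5 genes called with the diet in air stayed past the threshold. Idi1 (adjusted p = 0.0627), Stard4 (0.0684), Fdps (0.153) and Fdft1 (0.234, limma) did not, and Hmgcs1 was added at -0.18 (adjusted p = 0.00428, limma). Fdft1 and Cyp51 stayed in DIO-SS against DIO-SC, and Idi1 and Fdps were lost there.

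**Figure D3:**
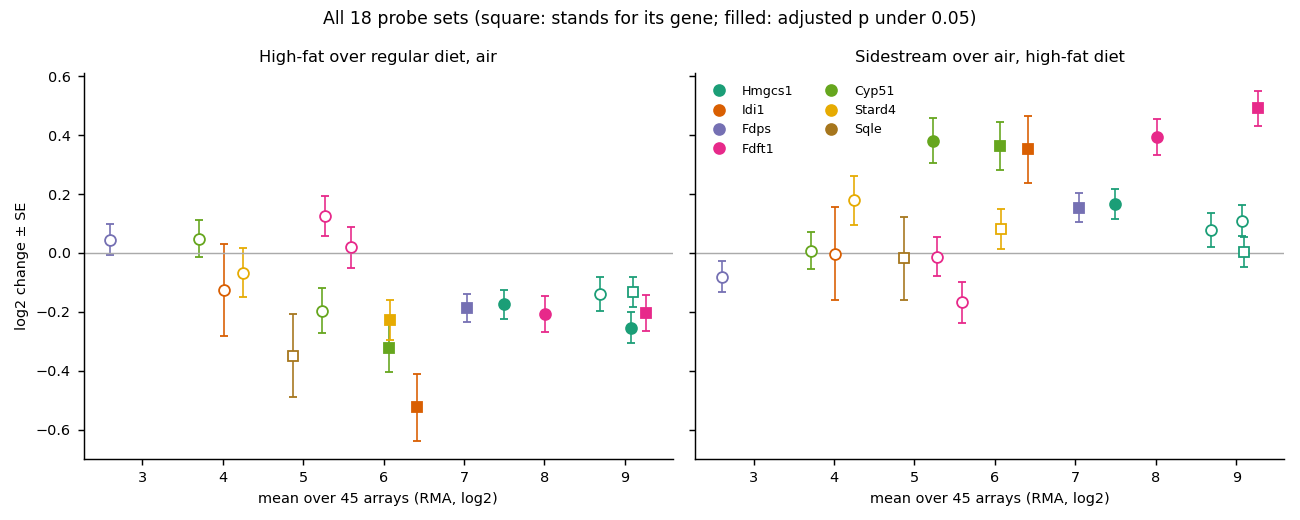
Log2 change ± SE of each of the 18 probe sets against its mean level over 45 arrays, for the diet in air (left) and sidestream smoke in DIO mice (right). Colours are genes, squares are the probe sets that stand for a gene, and filled symbols passed at an adjusted p under 0.05. The bright Fdft1 probe sets (means 9.26 and 8.01) lie at -0.20 and -0.21 on the left and at 0.49 and 0.39 on the right.

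Fat markers moved with part of these genes. The mean of 6 white fat markers had group means of 7.45 in RW-SC, 7.28 in RW-MS, 7.50 in RW-SS, 6.42 in DIO-SC, 6.72 in DIO-MS and 6.87 in DIO-SS, and ranged over arrays from 5.08 to 8.96. Of these 6 markers 5 passed the filter on low values: Adipoq, which codes for adiponectin, ran from 4.07 to 11.24, and Lep stayed at 4.65 or lower on every array. The mean of 4 brown fat markers lay at 9.06, 9.33 and 9.56 in RW-SC, RW-MS and RW-SS, and at 8.53, 8.55 and 8.70 in DIO-SC, DIO-MS and DIO-SS. Ucp1, the defining gene of brown fat, ran from 4.24 to 10.87, whereas Cidea and Cox7a1 were at 8.997 or more on every array.

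The mean of the 6 sterol genes, each centred over the arrays, correlated with the white fat mean at r = 0.60 over the 45 arrays (Spearman's rho 0.61, and r = 0.64 without the 2 arrays farthest from the median). Within groups r was 0.87 in RW-SC, 0.84 in RW-MS, 0.58 in RW-SS, 0.31 in DIO-SC, 0.25 in DIO-MS and 0.28 in DIO-SS, over 6 to 8 arrays each. Without the 2 farthest arrays of a group it was 0.93, 0.98, 0.55, -0.06, 0.50 and 0.13 in the same order. In RW-MS the atrial mean correlated with the sterol genes at 0.84 too: RW-MS 2, 6 and 8, which nearly lack atrial transcripts, were also the lowest of their group for white fat and for the sterol genes. These values are a description and share the arrays and their normalization. By gene, the deviations from the group means correlated with white fat at 0.69 for Hmgcs1, 0.67 for Idi1, 0.42 for Cyp51, 0.24 for Fdps, 0.15 for Stard4 and -0.25 for Fdft1.

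With the white fat mean as a covariate, the same 5 genes were lower with the diet in air. Idi1 then changed by -0.36 (adjusted p = 0.00359) and Cyp51 by -0.25 (adjusted p = 0.0196, limma), and Hmgcs1 by -0.06 (adjusted p = 0.270, limma). Fdft1 changed by -0.23, somewhat more than without the covariate. The same 4 genes were higher in DIO-SS against DIO-SC, with Fdft1 at 0.50 and Idi1 at 0.28. In RW-SS against RW-SC Hmgcs1 was added as lower, at -0.10 (adjusted p = 0.0482, limma). In the sidestream interaction Idi1 and Fdft1 were added and Stard4 was lost, for a count of 3. With the brown fat mean as the covariate, added after the data were seen, the 5 and the 4 genes stood as well.

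**Figure D4:**
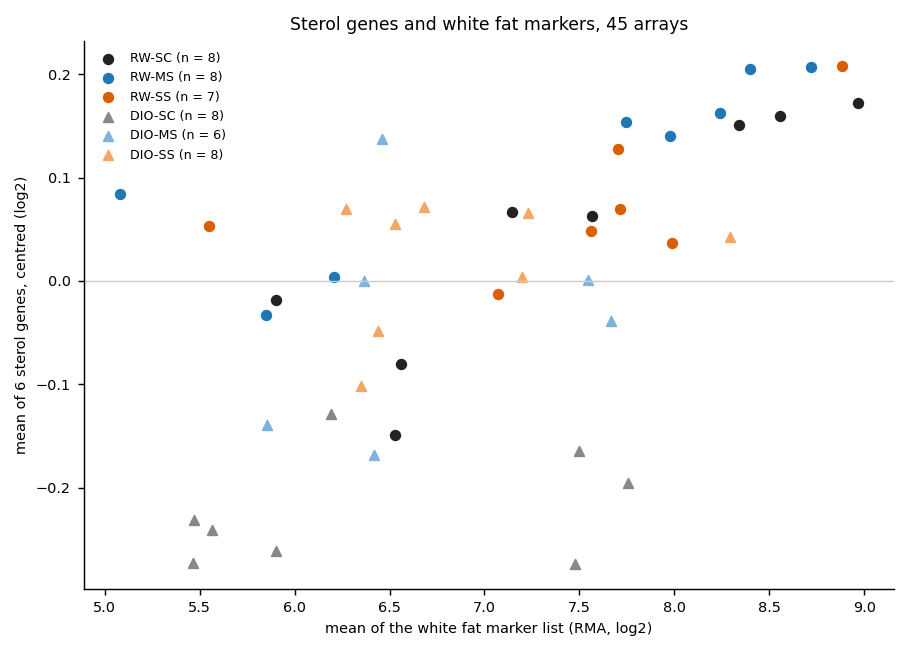
Mean of the 6 sterol genes (each centred on its mean over the 45 arrays, log2) against the mean of the white fat markers (log2), 1 point per array, with colours for groups, circles for RW and triangles for DIO mice. The RW arrays climb from left to right, and the 6 lowest points, from -0.27 to -0.20, are DIO-SC arrays. All 8 DIO-SC arrays lie between -0.27 and -0.13, over a range of white fat means from 5.46 to 7.76.

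The 6 genes were only partly coordinated with each other. Over the 45 arrays the highest correlations were those of Idi1 with Cyp51 (0.63), with Fdps (0.62) and with Hmgcs1 (0.59), and of Fdft1 with Cyp51 (0.59). With the group means removed, Idi1 and Hmgcs1 kept 0.64, whereas Fdft1 and Cyp51 dropped to 0.02 and Fdft1 and Idi1 stood at -0.12. Outside the list, the genes most like the mean of the 6 over 45 arrays were Cdkn2c (r = 0.83), Prxl2a (0.83), Blvrb (0.81), C1qtnf12 (0.80) and Spg21 (0.80). With the group means removed they were Spg21 (0.78), Pgd (0.77), Bscl2 (0.77), Pank3 (0.74), Cd1d1 (0.73), Pcx (0.73) and Acly (0.72).

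Other enzymes of cholesterol synthesis were tested in the same fit. With the diet in air, where 20.2% of all genes passed (13.3% lower, 6.92% higher), 3 of 12 were lower, 1 was higher and 8 did not pass, with a median of -0.11 against -0.02 over all genes. Msmo1, which acts with Cyp51 on the methyl groups of sterols, changed by -0.28 ± 0.05 (adjusted p = 0.000235), Sc5d, a desaturase near the end of the route, by -0.28 ± 0.06 (adjusted p = 0.00159), and Pmvk, a mevalonate pathway kinase, by -0.27 ± 0.06 (adjusted p = 0.00171, limma). Hsd17b7, a sterol ketoreductase, was higher by 0.28 ± 0.07 (adjusted p = 0.00482, limma). Lss, which closes the ring to lanosterol, differed by -0.10 (adjusted p = 0.362, limma).

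In DIO-SS against DIO-SC the same 12 enzymes gave 2 higher, Ebp (0.15 ± 0.06, adjusted p = 0.0483) and Pmvk (0.17 ± 0.06, adjusted p = 0.0287, limma), and 1 lower, Hsd17b7 (-0.42 ± 0.07, adjusted p = 4.91e-05, limma). Together 3 of 12 passed, a share below the 31.8% of all genes, and their median change was 0.01, against 0.04 over all genes. In RW-SS against RW-SC 1 was higher and 2 lower. In RW-MS against RW-SC and in DIO-MS against DIO-SC none of the 12 passed in limma, and 2 and 3 had an unadjusted p under 0.05.

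The regulators and other targets of SREBP2 gave 4 of 10 lower with the diet in air and none higher, where 13.3% of all genes were lower and 6.92% higher. Acss2, an acetyl-CoA synthetase, changed by -0.42 ± 0.10 (adjusted p = 0.00136), Npc2, which hands cholesterol out of lysosomes, by -0.31 ± 0.09 (adjusted p = 0.00967), Tmem97, a sterol-regulated membrane protein, by -0.24 ± 0.06 (adjusted p = 0.00462) and Insig2 by -0.13 ± 0.04 (adjusted p = 0.0115, limma). Srebf2, the gene of SREBP2 itself, differed by 0.00 (adjusted p = 0.970), and Scap by -0.05 (adjusted p = 0.365, limma). A transcript level does not show how much SREBP2 is cut and active. In DIO-SS against DIO-SC 3 of the 10 were higher and none lower, a share near the 31.8% of all genes that passed (23% higher): Npc1, the lysosomal partner of Npc2, by 0.29 ± 0.08 (adjusted p = 0.00357), Scap by 0.14 ± 0.03 (adjusted p = 0.00217) and Insig2 by 0.11 ± 0.04 (adjusted p = 0.0256, limma).

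Acss2 was lower with smoke in RW mice, by -0.37 ± 0.10 with mainstream (adjusted p = 0.0109) and by -0.56 ± 0.10 with sidestream smoke (adjusted p = 4.49e-05, limma). Its RW-SC arrays ran from 8.21 to 9.23, and those of RW-SS from 7.71 to 8.36. Its sidestream interaction was 0.66 ± 0.14 (adjusted p = 0.000728, limma). In that interaction, where 28.4% of all genes passed (18.3% positive), 4 of these 10 genes passed, all positive (Acss2, Insig2, Mbtps1 and Scap). Among the other synthesis enzymes Ebp and Msmo1 were positive and Hsd17b7, Mvd and Tm7sf2 negative.

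Among the genes of LXR, the receptor that senses excess sterols, and of cholesterol efflux and storage, 3 of 13 were higher and none lower with the diet in air, with a median of 0.03. Over all genes 20.2% passed in this contrast, 6.92% as higher and 13.3% as lower. Abca1, which exports cholesterol, changed by 0.31 ± 0.08 (adjusted p = 0.00304), Mylip, a ubiquitin ligase, by 0.22 ± 0.06 (adjusted p = 0.00965), and Lpcat3, a phospholipid remodelling enzyme, by 0.47 ± 0.04 (adjusted p = 1.18e-10, limma). Abca1 arrays ran from 8.60 to 9.15 in RW-SC and from 8.89 to 9.33 in DIO-SC, so the groups overlapped. In DIO-SS against DIO-SC 2 of the 13 were higher (Lipa and Lrp1) and 2 lower (Abcg1 and Stard3), near the 31.8% of all genes that passed.

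Fatty acid synthesis genes under SREBP1 had the largest falls of any of these lists with the diet in air: 6 of 13 were lower and 1 was higher, where 13.3% of all genes were lower and 6.92% higher. Scd1, a fatty acid desaturase, changed by -2.88 ± 0.69 (adjusted p = 0.00245), Fasn, the fatty acid synthase, by -2.18 ± 0.58 (adjusted p = 0.00596) and Acly, which makes cytosolic acetyl-CoA, by -1.30 ± 0.27 (adjusted p = 0.000598, limma). Gpam was higher by 0.57 ± 0.07 (adjusted p = 4.41e-08, limma). In DIO-SS against DIO-SC 2 of the 13 were higher (Fads1 and Gpam) and none lower, where 31.8% of all genes passed. These are also genes of fat tissue, and the fat markers given above moved in the same contrast. The part of fat tissue in the values of these lists was not tested.

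The non-sterol branches of the mevalonate pathway had 5 genes tested, and none passed in limma in DIO-SC against RW-SC or in DIO-SS against DIO-SC, where 1 and 1 had an unadjusted p under 0.05. Their medians were -0.06 with the diet in air and 0.03 in DIO-SS against DIO-SC.

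**Figure D5:**
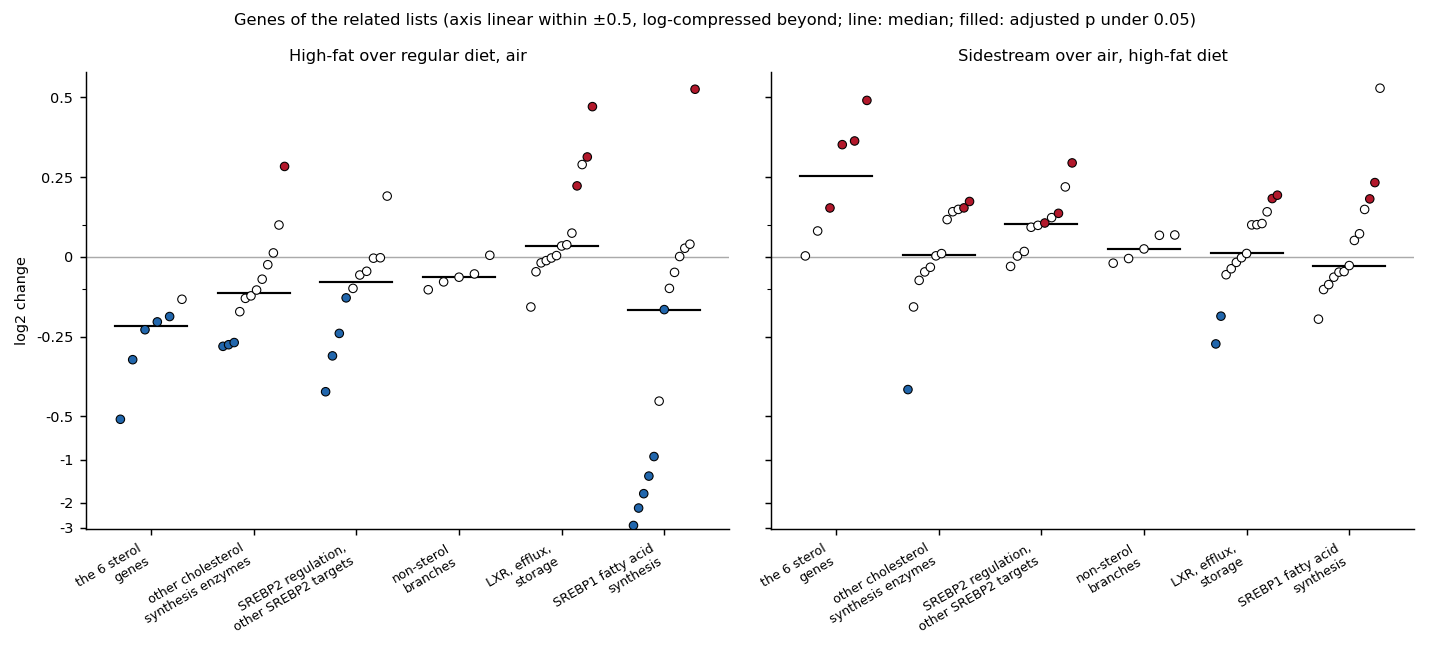
Log2 change of each tested gene, by list, for the diet in air (left) and sidestream smoke in DIO mice (right), with the median of a list as a line and filled points (red higher, blue lower) at an adjusted p under 0.05. The vertical axis is linear within ±0.5 and log-compressed beyond. With the diet the 6 sterol genes lie below 0 (median -0.22) and the LXR and efflux genes have a median of 0.03. With sidestream smoke the 6 sterol genes have a median of 0.25 and the other synthesis enzymes of 0.01.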

How the data were processed

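Biotin-labelled RNA (3 µg of total RNA) was hybridised to Affymetrix arrays, per the labels. The deposited values are log2 expression per probe set, made by the authors with RMA per the submitters' processing notes. For its version and the dates of scanning the sources used here give nothing. Within a group, arrays are biological replicates per the labels.

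Of 22690 probe sets, 20380 carried 1 symbol, 691 several and 1606 were unlisted, beside 64 controls. A gene was read from its brightest probe set by mean. Genes in the lowest 25% (mean under 4.90) were dropped, leaving 9295. A model of the 6 group means over all 45 arrays was fitted in limma 3.58.1 (R 4.3.3, 42.6 residual degrees of freedom, two-sided). Benjamini-Hochberg adjustment ran over all genes of each comparison, and an adjusted p under 0.05 counted as passing. Changes are log2 differences, and an interaction is the smoke change in DIO minus that in RW mice. The fit was tested on simulated data. Tables and plots were made with pandas 2.3.3 and matplotlib 3.10.9 under Python 3.11.15.

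The rule for named genes took all 8 listed genes with every probe set, members of the pathway lists and markers, whatever their values. Members and lists were chosen with earlier results of these data known. Other settings changed the filter, the choice of probe set, the eBayes options, the weights of arrays, the arrays fitted, the normalisation, a block for replicate numbers or a marker covariate. Title numbers did not pair the samples.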

Additional observations from a re-analysis of the deposited data

Results flagged for a closer look

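Sets of a gene and a group were tested for a lone extreme value, and 3 of 42 were flagged. That share is near the 1 in 20 or so that chance gives. Idi1 read 7.47 in RW-MS 7, against 6.22 to 6.77 in the other 7 arrays. On the same array Fdft1 read 9.13, against 9.42 to 9.52 in the others, so this array was the highest of its group for one gene and the lowest for the other. It also had the lowest correlation with its group, and the mean of 6 lymphocyte markers was 7.14 on it, against 4.70 to 5.17 on the other RW-MS arrays. The part of these markers in its values was not tested. Stard4 read 5.73 in RW-SC replicate 5, against 6.17 to 6.35. Without that array the change of Stard4 with the diet in air was -0.30 (adjusted p = 0.000292, limma).

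The change with sidestream smoke differed between the diets for Fdps, by 0.24, and for Stard4, by 0.25, by the test of the interaction. These were 2 of the 6 genes, a share near the 28.4% of all genes that passed. The Stard4 call was kept in only 10 of 45 fits without 1 array. That of Fdps was lost with the mean of all probe sets, its very dim one included, and after further quantile normalisation. For Fdps 6 of 7 RW-SS arrays lay below the RW-SC mean and 7 of 8 DIO-SS arrays above the DIO-SC mean.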

How the results depend on the processing

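The fit had 18 called changes of the 6 genes over the 11 comparisons. Under the 15 alternatives and the 45 fits without 1 array they gave 1070 values, all 1070 in the same direction, and the call was kept in 981. Leaving out an array from outside the compared groups does not alter a change in this model. The direction of many of these values was therefore fixed in advance. Fewer genes were called in several settings. With the lowest 50% of genes left out only Hmgcs1, Fdps and Fdft1 were tested, and the counts were 3 with the diet in air, 2 in DIO-SS against DIO-SC, 1 in RW-SS against RW-SC, 1 in DIO-MS against DIO-SC, 1 in the sidestream interaction, 0 in DIO-MS against RW-MS, 0 in DIO-SS against RW-SS and 2 in the F test. With the mean of all probe sets they were 2 with the diet in air (Cyp51 kept of the 5, Hmgcs1 added), 2 in DIO-SS against DIO-SC, 1 in DIO-MS against DIO-SC and 4 in RW-SS against RW-SC (2 higher, 2 lower). DIO-MS against DIO-SC gave 1 with no filter, with every probe set tested, with only the groups compared and after further quantile normalisation. The sidestream interaction gave 1 with no filter, with every probe set tested, after quantile normalisation and with the mouse number as a replicate block, and 4 with array weights. DIO-MS against RW-MS gave 3 with array weights, 2 with the white fat covariate, 2 without RW-MS 7 and RW-SS 7, and 0 with only the groups compared. DIO-SS against RW-SS gave 0 with the brown fat covariate and 0 without RW-MS 7 and RW-SS 7, and DIO-SS against DIO-MS gave 1 with array weights. Without 1 array at a time the counts ran from 5 to 6 with the diet in air, from 2 to 4 in RW-SS against RW-SC, from 1 to 2 in DIO-MS against DIO-SC and in DIO-MS against RW-MS, from 0 to 1 in DIO-SS against RW-SS and in DIO-SS against DIO-MS, from 1 to 4 in the sidestream interaction and from 4 to 5 in the F test. They stayed at 4 in DIO-SS against DIO-SC and at 1 in RW-MS against RW-SC. The cause of these shifts was not tested, apart from the smaller number of genes under the stricter filter.

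Further quantile normalisation moved the split of all called genes from 643 higher and 1239 lower to 773 and 901 with the diet in air, from 2140 and 820 to 1303 and 913 in DIO-SS against DIO-SC, from 1083 and 1205 to 1379 and 888 in RW-SS against RW-SC, from 1832 and 1198 to 1142 and 1443 in DIO-SS against RW-SS, from 266 and 372 to 363 and 336 in RW-MS against RW-SC, from 204 and 337 to 297 and 236 in RW-SS against RW-MS, from 148 and 89 to 38 and 62 in DIO-SS against DIO-MS and from 1700 and 941 to 623 and 965 in the sidestream interaction. Fdps did not pass in DIO-SS against DIO-SC or in the sidestream interaction after quantile normalisation, nor with the mean of all probe sets. Hmgcs1 with the diet in air passed in 9 of the 15 alternatives. Same-numbered arrays did not deviate together (median r = -0.00 over 106 pairs, 34 above 0.1), so the numbers name arrays only. The title number as a replicate block gave 4 genes in DIO-SS against DIO-SC and moved no count by more than 1.5 times. Dim probe sets limit what can be seen of Sqle and of the dimmest probe sets of Idi1, Fdps, Cyp51 and Stard4.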
